A study of Mus musculus with 2 samples.

Results

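The interferon-inducible GTPases were described in leukocytes of mouse melanomas that were naive or resistant to targeted therapy. The 9 genes were picked by name and function, as guanylate-binding proteins (Gbp2, Gbp2b, Gbp3, Gbp4, Gbp5 and Gbp7) and immunity-related GTPases (Irgm1, Igtp and Iigp1), and they were 9 of the 12584 genes in the deposited count matrix. The rule uses no measured value, although it was set with earlier results of these data known.

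Guanylate-binding proteins (GBPs) and immunity-related GTPases (IRGs) are large GTP-hydrolysing proteins that interferon-gamma and, for many of them, type I interferon switch on through factors such as IRF1. GBPs and the effector IRGs assemble on the vacuoles and membranes of intracellular pathogens and open them to inflammasomes and autophagy proteins. Irgm1 and Igtp (also called Irgm3) belong to the regulatory branch that sits on the cell's own membranes and holds effectors such as Iigp1 (Irga6) in check. In tumour-infiltrating leukocytes their mRNAs are widely read as a sign that a cell has met interferon.

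Both groups were tumours of YUMM3.3, a mouse melanoma line that carries Braf V600E and lacks Cdkn2a, grown under the skin of C57BL/6 mice. NTT tumours came from cells naive to targeted therapy. RTT tumours came from cells resistant to it, which the study's methods describe as kept continuously in the BRAF inhibitor dabrafenib in culture. The sample records give 12 days after injection for both groups, while the study's methods name another day. Live CD45+ cells were sorted from 1 tumour per group, and their RNA was read as 3′ single-cell libraries in which each captured molecule is counted once by its unique molecular identifier (UMI).

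The sequences below show what the promoters at hand, those of 7 of the 9 genes, share. Whether these letters have a part in the levels described further on was not tested. RefSeq promoter windows on GRCm38.p6, which run from 250 bases before to 50 bases after an annotated start, were at hand for 7 of the 9 genes. An ISRE core, the paired box GAAANNGAAA bound by interferon regulatory factors, was searched on both strands, as were the letters TTCNNNGAA of the gamma-activated site (GAS). The ISRE core lay in the windows of all 7 genes and in 3.44% of the 32851 windows of the table, or 3.24% of the 12782 windows of genes in the matrix. One of the Gbp3 windows, at the second annotated start, held none. GAS letters lay in the windows of 3 of the 7 genes, Gbp5, Gbp7 and Igtp, and in 8.30% of all windows. In each line the ISRE core is in capitals within up to 10 bases on either side, read 5′ to 3′ on the strand of the gene, and in Gbp3 and Irgm1 a second, overlapping match shares a box with the one shown.
Gbp2, chr3:142620594-142620623, plus strand, 59 bases before the start: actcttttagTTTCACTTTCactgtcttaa
Gbp2b, chr3:142594700-142594729, plus strand, 137 bases before: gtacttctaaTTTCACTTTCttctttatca
Gbp3, chr3:142559989-142560018, plus strand, 45 bases before: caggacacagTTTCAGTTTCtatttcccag
Gbp5, chr3:142496759-142496788, plus strand, 165 bases before: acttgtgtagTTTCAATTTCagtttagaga
Gbp7, chr3:142530273-142530302, plus strand, 53 bases before: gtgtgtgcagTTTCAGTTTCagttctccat
Igtp, chr11:58199512-58199541, plus strand, 34 bases before: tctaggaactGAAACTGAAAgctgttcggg
Irgm1, chr11:48871425-48871454, minus strand, 24 bases before: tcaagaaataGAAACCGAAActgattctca

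The whole windows of Gbp2b and Gbp7 are shown because these genes stood at the far ends of the range of differences given further on. The 5 Gbp genes of chromosome 3 lie side by side within 141 kb, from 142496934 to 142638008. Capitals mark the ISRE core and, in Gbp7 alone of these windows, a pair of GAS matches before it. No match overlapped another in these windows, and a match describes the letters without showing that a factor binds there.
Gbp2b, chr3:142594597-142594896, plus strand: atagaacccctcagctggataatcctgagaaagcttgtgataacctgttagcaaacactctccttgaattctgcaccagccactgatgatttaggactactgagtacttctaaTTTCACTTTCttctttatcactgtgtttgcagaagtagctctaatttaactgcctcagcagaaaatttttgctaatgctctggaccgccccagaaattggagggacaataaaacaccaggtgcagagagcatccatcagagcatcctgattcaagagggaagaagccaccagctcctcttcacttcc
Gbp7, chr3:142530086-142530385, plus strand: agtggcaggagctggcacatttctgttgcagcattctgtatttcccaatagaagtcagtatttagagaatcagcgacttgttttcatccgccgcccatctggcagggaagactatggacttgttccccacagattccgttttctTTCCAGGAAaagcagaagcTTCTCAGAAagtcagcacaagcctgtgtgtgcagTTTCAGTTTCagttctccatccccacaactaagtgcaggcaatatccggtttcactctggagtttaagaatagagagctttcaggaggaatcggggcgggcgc

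The libraries held 2975 NTT and 4840 RTT cells with 19634099 and 44712071 UMIs, and a median cell held 5398 and 8336 UMIs. Values are CPM, the UMIs of a gene summed over cells and scaled to the same total of UMIs in each library or population, and differences are log2 ratios of RTT over NTT. With 1 library per group the variation from tumour to tumour is unknown, and no difference was tested. All intervals are exact 95% intervals that cover counting error only. The 2 libraries shared 7 cell barcodes. Ptprc, the gene of the sorted marker CD45, ranged from 219 CPM in RTT Ctsk_Macro to 1918 CPM in NTT NK_cells among populations of at least 50 cells. The Gbp genes resemble each other in sequence, so single values rest on how reads that match several of them were assigned.

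The 9 genes were lower in the RTT library. They gave 29789 UMIs in the NTT library and 12409 in the RTT library, or 1517 and 278 CPM, a 5.47-fold difference. Each of the 9 was lower by at least 2-fold, against 9.6% of the 8220 genes with at least 500 UMIs. With populations weighted equally, Gbp3 (-0.67), Gbp7 (-0.76) and Igtp (-0.995) were no longer at 2-fold and the median was -1.31. In the summed counts the median log2 ratio of the 9 was -2.80, where the median of all those genes was 0.10. In these summed values, fewer cells that carry the mRNA and less mRNA per cell cannot be told apart.

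Among the guanylate-binding proteins, Gbp2, a GBP that assembles on pathogen vacuoles and on bacteria, went from 479 to 50.6 CPM (log2 ratio -3.24, interval -3.31 to -3.18). Gbp2b, the gene of mouse GBP1, had the lowest ratio of the 9, from 26.4 to 0.626 CPM (-5.40, interval -6.00 to -4.85), and only 4 of the 8220 genes had a lower one. It was also the scarcest of the 9, with 519 NTT and 28 RTT UMIs. Gbp4, which lies apart on chromosome 5 (105115767 to 105139586), went from 90.5 to 6.78 CPM (-3.74).

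Gbp5, a GBP known for its part in inflammasome activation, went from 74.0 to 10.6 CPM (-2.80). Gbp3 went from 144 to 43.0 CPM (-1.75, interval -1.83 to -1.67). Gbp7 was the least different, from 247 to 104 CPM (-1.25, interval -1.31 to -1.19), and 570 of the 8220 genes had a lower ratio. The intervals of Gbp2, Gbp2b, Gbp3 and Gbp7 over all cells overlapped those of no other member.

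The regulatory IRGs differed alike. Irgm1 went from 126 to 21.4 CPM (-2.56, interval -2.67 to -2.45) and Igtp from 166 to 27.0 CPM (-2.62, interval -2.72 to -2.53). Iigp1, the effector IRG, went from 162 to 13.7 CPM (-3.57, interval -3.69 to -3.44). Its interval lay below those of both regulators and overlapped that of Gbp4.

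**Figure D1:**
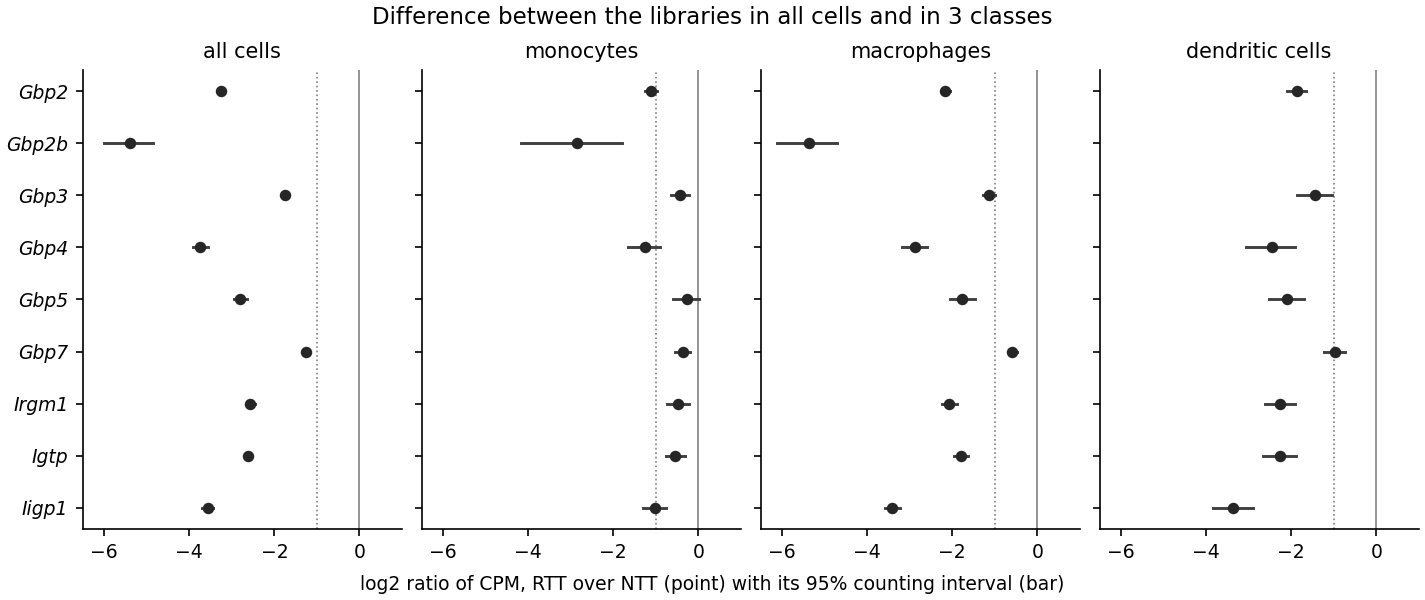
Log2 ratio of CPM, RTT over NTT, of each gene in all cells, monocytes, macrophages and dendritic cells (1 library per group), with its 95% counting interval. The dotted line marks a 2-fold lower level. All points lie left of 0, Gbp2b lies farthest left in all cells (-5.40), and the monocyte points (median -0.54) lie nearest to 0. Gbp2b has no point in dendritic cells, where it had 3 NTT and 0 RTT UMIs.

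The make-up of the GTPase UMIs differed as well. Gbp2 gave the largest share in the NTT library, 31.6% of the UMIs of the 9 genes (interval 31.1 to 32.1), and 18.2% in the RTT library (17.6 to 18.9). Gbp7 gave 16.3% in the NTT library (15.9 to 16.7) and 37.4% in the RTT library (36.5 to 38.2), the largest share there. Gbp3 went the same way as Gbp7, from 9.52% to 15.5%. Iigp1 went from 10.7% to 4.94% and Gbp4 from 5.97% to 2.44%, while Irgm1 was close in both, with 8.34% and 7.73%. These shares count 3′ molecules and do not rank the genes by expression, since genes may be captured unequally.

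**Figure D2:**
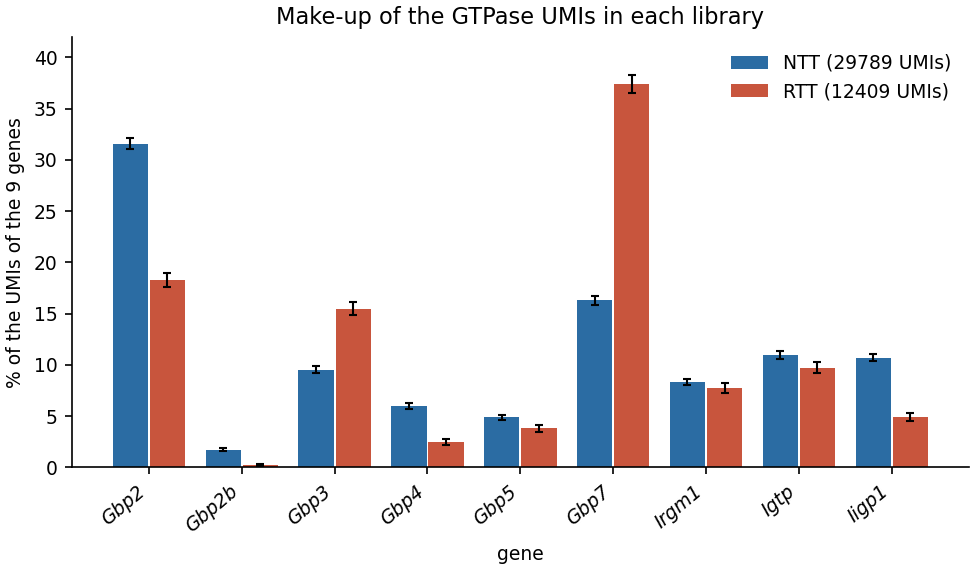
Share of each gene in the UMIs of the 9 genes, with exact 95% binomial intervals, in the NTT library (29789 UMIs) and the RTT library (12409 UMIs). Gbp2 holds 31.6% in NTT and 18.2% in RTT, and Gbp7 holds 16.3% and 37.4%.

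Levels were next followed through the cell populations that the authors had named. Over the 21 groups of at least 50 cells, each a population in 1 library, the mean of log2(CPM + 1) over the 9 genes was highest in NTT Infl_Mono, the inflammatory monocytes (7.99), then in NTT Monocyte_1 (7.27), NTT TAM_H2Ab1 macrophages (6.61) and RTT Infl_Mono (6.56). It was lowest in RTT cDC1 (2.29), RTT Ctsk_Macro (3.25) and RTT TAM_Spp1 (3.44). NTT Neutro (6.49) and RTT Monocyte_1 (6.48) were nearly level, and neighbours in this order were not tested against each other.

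Inflammatory monocytes carried 34.2% of all GTPase UMIs of the NTT library and were 20.8% of its cells. Monocyte_1 cells carried 32.3%, close to their 33.1% of the cells. Gbp2 reached 1214 CPM in NTT Infl_Mono (interval 1175 to 1253) and 611 CPM in NTT Monocyte_1. Gbp7 reached 495 CPM and 262 CPM in these populations. Gbp2b had its highest level elsewhere, at 50.8 CPM in NTT Monocyte_1, 41.7 CPM in NTT TAM_H2Ab1 and 34.0 CPM in NTT Infl_Mono, and these 3 populations held 53.0%, 17.7% and 20.6% of its NTT UMIs. No UMI of Gbp2b was counted in the 279 NTT cDC2 cells, the 193 NTT TAM_Spp1 cells or the 78 NTT cDC1 cells.

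The single genes did not follow one order of populations. Among groups of at least 50 cells, Gbp5 was about as high in NTT DC3, the mature dendritic cells, as in NTT Infl_Mono, with 180 CPM (interval 152 to 212) and 193 CPM (178 to 209), and it was 59.8 CPM in NTT cDC2. Gbp4 was higher in NTT NK_cells (141 CPM) than in NTT neutrophils (46.3 CPM), whereas Gbp2 was higher in neutrophils (644 CPM) than in NK_cells (73.1 CPM). Iigp1 (chr18:60373616-60392634) had 208 CPM in NTT cDC2 and 201 CPM in NTT TAM_H2Ab1, but 4.86 CPM in NTT TAM_Spp1, from 5 UMIs. Irgm1 was the gene with the highest level of the 9 in NTT cDC1 by UMIs counted, with 65 of 240.

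**Figure D3:**
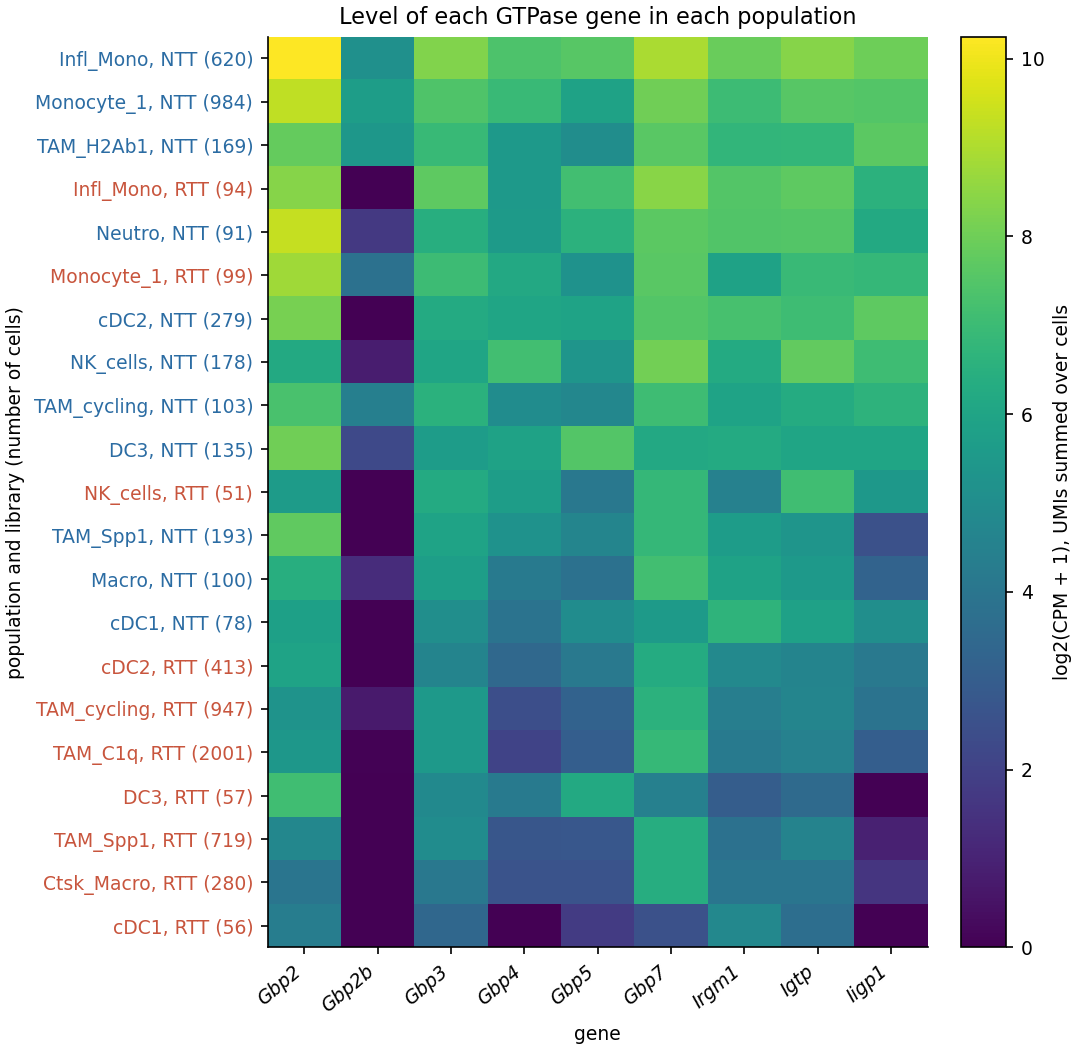
Level of each gene as log2(CPM + 1) in the 21 groups of at least 50 cells (number of cells in brackets; blue names NTT, red names RTT), ordered by the mean over the 9 genes. The order runs from NTT Infl_Mono (7.99) to RTT cDC1 (2.29), and Gbp2b is highest in NTT Monocyte_1 (50.8 CPM).

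Within monocytes, pooled from Monocyte_1, Monocyte_3 and Infl_Mono (1615 NTT and 199 RTT cells), the differences were smaller. The median log2 ratio of the 9 genes was -0.54 and 4 of 9 were lower by at least 2-fold, against 6.74% of 5326 genes with at least 200 UMIs in this class. The 4 were Gbp2b (44.4 to 6.18 CPM, -2.85), Gbp4 (138 to 57.3 CPM, -1.27), Gbp2 (830 to 383 CPM, -1.12) and Iigp1 (207 to 101 CPM, -1.03). Gbp5 had 109 and 90.0 CPM, and its interval of -0.59 to 0.02 included 0 in the pooled class, but it was below 0 in Infl_Mono (-0.45, interval -0.80 to -0.12) and in Monocyte_1 (-0.72, interval -1.47 to -0.05). In Infl_Mono alone the same number, 4 of 9, were lower (background 9.78%), and in Monocyte_1 alone 2 of 9, Gbp2b and Irgm1 (background 9.87%). Gbp2b had 107 UMIs in NTT Infl_Mono and 0 in RTT Infl_Mono, at least 6.68-fold lower against a floor of 3 UMIs in the RTT population.

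Macrophage markers moved with this comparison. In Infl_Mono the 6 macrophage markers (C1qa, C1qb, C1qc, Apoe, Mrc1 and Adgre1), all found in both libraries, summed to 7586 CPM in NTT and 31846 CPM in RTT, while the 4 monocyte markers in the matrix summed to 11163 and 3603 CPM. C1qa reached 1000 CPM in 145 of 620 NTT and in 45 of 94 RTT Infl_Mono cells, and in 59.5% of NTT and 44.4% of RTT Monocyte_1 cells. Without the monocytes that did so, chosen after the values were seen, 884 NTT and 110 RTT cells were left and 7 of 9 genes were lower by at least 2-fold, against 9.5% of 3472 genes in these cells, with a median of -1.21 where that of all genes was -0.07. Gbp5 then went from 147 to 43.3 CPM (-1.76, interval -2.50 to -1.10) and Gbp7 from 374 to 162 CPM (-1.21). Of the cells left, 475 NTT and 49 RTT cells were Infl_Mono, and 399 and 55 were Monocyte_1. Gbp2 (-2.58 and -0.48), Gbp3 (-1.29 and -0.80), Gbp4 (-1.51 and -0.68) and Gbp7 (-1.65 and -0.55) reached 2-fold in the former but not in the latter. Gbp5 (-1.80 and -1.15), Irgm1 (-1.26 and -1.34) and Iigp1 (-1.76 and -2.19) did in both. Among the C1qa-carrying cells the interval of Gbp5 included 0 within each population, at 0.09 in Infl_Mono (-0.34 to 0.51) and -0.42 in Monocyte_1 (-1.45 to 0.45). In the C1qa-carrying Infl_Mono cells, Gbp3 (-0.52), Gbp7 (-0.44) and Irgm1 (-0.49) had intervals below 0. In the C1qa-carrying Monocyte_1 cells that held for Irgm1 (-0.97), while the intervals of Gbp3 (-0.17) and Gbp7 (-0.35) included 0. With the C1qa-carrying monocytes pooled, the intervals of Gbp3 (0.03), Gbp7 (0.08) and Irgm1 (-0.04) included 0. Gbp5 was higher in RTT in that pool (0.73, interval 0.36 to 1.08).

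Macrophages showed a wider difference. Over 582 NTT and 4009 RTT cells, 8 of 9 genes were lower by at least 2-fold, against 6.18% of 8888 genes, and the median ratio was -2.06. Gbp2b went from 22.1 to 0.533 CPM (-5.38) and Iigp1 from 108 to 10.2 CPM (-3.40). Gbp7 was the exception, with 155 and 103 CPM (-0.59, interval -0.69 to -0.49). The populations behind the class differed between the libraries, since TAM_C1q held 17 NTT and 2001 RTT cells and Ctsk_Macro 280 RTT cells alone. Values within single populations are therefore given next. TAM_C1q had 445 CPM (interval 340 to 571) of the 9 genes together in NTT and 259 CPM (252 to 267) in RTT.

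In cycling macrophages (TAM_cycling, 103 and 947 cells) 8 of 9 genes were lower by at least 2-fold (background 4.34%), with Gbp7 again the exception at 133 and 95.1 CPM (-0.49). In TAM_Spp1 (193 and 719 cells) 5 of the 8 genes with more than 3 UMIs in a library were lower (background 12.5%), Gbp2 from 215 to 25.7 CPM (-3.06) among them, while Gbp7 had 111 and 82.1 CPM (-0.43). In TAM_Spp1 the monocyte markers summed to 6184 CPM in NTT and 2131 CPM in RTT, the macrophage markers to 7753 and 20681 CPM, and Spp1 itself had 167 and 3982 CPM. In TAM_cycling the 4 B and plasma cell markers summed to 2270 CPM in NTT and 0.164 CPM in RTT, the 3 Spp1-macrophage markers to 104 and 2234 CPM and the monocyte markers to 208 and 626 CPM. The part of these cells in the results was not tested, and 6 of the 9 genes in TAM_cycling and 2 in TAM_Spp1 reached the 200 UMIs of the background.

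TAM_H2Ab1, macrophages named for a class II gene, had no lower summed level in RTT. Its 169 NTT and 36 RTT cells had 1075 and 1368 CPM of the 9 genes together, Gbp2 had 225 and 547 CPM (1.28, interval 1.03 to 1.52) and Gbp3 had 117 and 167 CPM (0.50, interval 0.07 to 0.91). The intervals of the other 7 genes in TAM_H2Ab1 included 0. Macro, with 100 NTT and 26 RTT cells, had 423 CPM (376 to 475) and 634 CPM (520 to 765) of the 9 genes, but 26 of its 108 RTT UMIs were Iigp1 UMIs of 1 cell. In Macro the intervals of the other genes with more than 3 UMIs in a library included 0. The macrophage markers of TAM_H2Ab1 summed to 34467 CPM in NTT and 43147 CPM in RTT, the monocyte markers to 211 and 594 CPM, and the median cell held 12697 and 7963 UMIs, and the part of these in the result was not tested.

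Dendritic cells (492 NTT and 526 RTT cells) had a median ratio of -2.17, and 7 of the 8 genes above 3 UMIs were lower by at least 2-fold, against 7.56% of 4407 genes. Iigp1 went from 136 to 13.2 CPM (-3.36, interval -3.85 to -2.90) and Irgm1 from 122 to 25.5 CPM (-2.25). Gbp7, with 127 and 64.5 CPM (-0.97), was just short of 2-fold, and with TMM scaling it passed and the count was 8. In cDC2 all 8 genes above 3 UMIs were lower (background 6.71%), Iigp1 by the most, from 208 to 16.8 CPM (-3.63). The monocyte markers summed to 5148 CPM in NTT and 751 CPM in RTT cDC2, to 1414 and 152 CPM in DC3 and to 3277 and 1094 CPM in cDC1. The macrophage markers summed to 763 and 1516 CPM in cDC2, to 782 and 4754 CPM in DC3 and to 887 and 995 CPM in cDC1, and the part of either in the result was not tested. In cDC1 7 of 8 were lower (background 4.61%) and in DC3 6 of 8 (background 5.45%), but counts were small. None of the 9 genes reached 200 UMIs in cDC1 and 1, Gbp2, did in DC3.

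The population labelled NK_cells (178 NTT and 51 RTT cells) also had lower levels, with 5 of 8 genes lower by at least 2-fold (background 5.51%). All 8 NK and T cell markers (Nkg7, Klrd1, Gzma, Ncr1, Cd3e, Cd3d, Cd8a and Trac) were found there in both libraries. No population was labelled as T cells, so these values cannot be taken as those of NK cells alone. Irgm1 went from 75.4 to 21.7 CPM (-1.80) and Iigp1 from 132 to 43.4 CPM (-1.60). In these cells the macrophage markers summed to 342 CPM in NTT and 3241 CPM in RTT, and their part in the result was not tested. Only 3 of the 9 genes reached 200 UMIs in this population. Gbp3 had 64.8 and 75.9 CPM (0.23, interval -0.44 to 0.86), and the interval of Gbp2 included 0 as well. Neutrophils had only 29 RTT cells. Gbp2 had 292 UMIs (644 CPM) in NTT neutrophils and 6 UMIs (28.0 CPM) in RTT neutrophils, where the macrophage markers summed to 38423 CPM against 5210 CPM in NTT neutrophils, and the part of those cells in the result was not tested.

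Since the libraries differed both in their populations and in the levels within them, the difference in mean CPM per cell was split into these parts, with populations weighted at the mean of both libraries. For the 9 genes together the mean went from 1669 to 286 CPM per cell, and 58.2% of the difference came from population shares and 41.8% from levels within populations. The part from shares was 67.1% for Gbp3, 64.9% for Igtp and 62.1% for Gbp2. It was lowest for Gbp7 (44.8%) and Irgm1 (47.5%). With the levels of the NTT library the part from shares was 73.5%, and with those of the RTT library 42.8%, so that the split depended on the weights. Ctsk_Macro had no NTT cells, so its RTT level was used for both libraries and its part fell to shares. The NTT level of TAM_C1q came from 17 cells with 61 UMIs of the 9 genes.

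**Figure D4:**
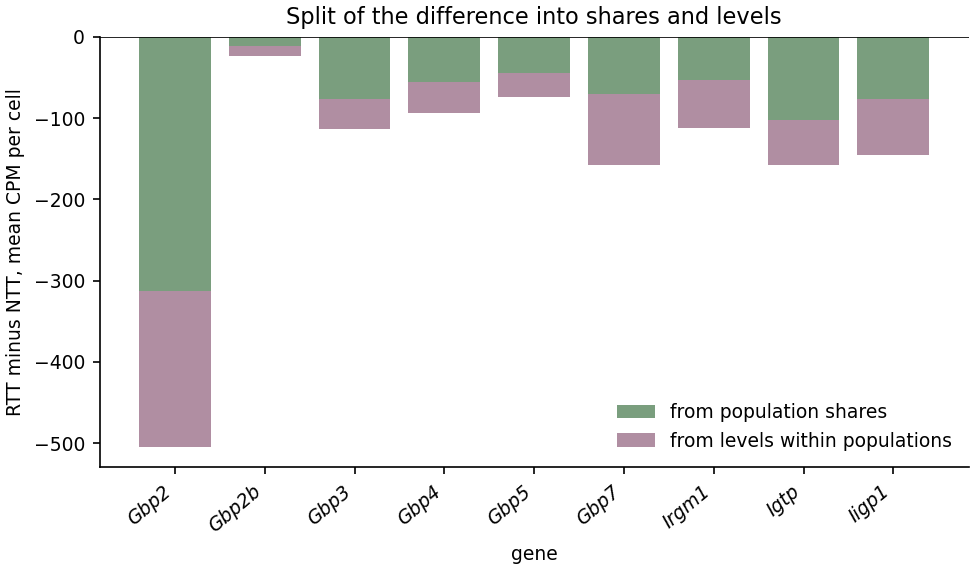
Difference in mean CPM per cell, RTT minus NTT, of each gene, split into the part from population shares and the part from levels within populations. Both parts lie below 0 for each gene, and the part from shares ranges from 44.8% (Gbp7) to 67.1% (Gbp3).

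The genes were then counted within single cells, each thinned at random to 2000 UMIs so that deeper cells had no advantage, which left out 107 NTT and 63 RTT cells. In the NTT library 27.9% of cells had a UMI of none of the 9 genes (interval 26.3 to 29.6), and in the RTT library 68.4% had none (67.1 to 69.7). At least 2 of the genes were found in 48.3% of NTT cells and 7.47% of RTT cells, and at least 4 in 19.7% and 1.15%. The most found in a cell was 8 in the NTT library, in 7 cells, and 7 in the RTT library, in 1 cell.

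In NTT Infl_Mono 73.9% of cells had at least 2 of the genes (interval 70.2 to 77.4) and 44.1% had at least 4, while in RTT Infl_Mono 57.6% (46.9 to 67.9) and 22.8% did. Without thinning, at least 2 genes were found in 86.1% and 64.9% of these cells. In RTT TAM_C1q the share with at least 2 was 5.31% thinned and 37.2% unthinned. Gbp2 was found in 63.4% of thinned NTT Infl_Mono cells (76.6% unthinned) and in 11.6% of NTT NK_cells (31.5% unthinned), whose median cells held 4811 and 5359 UMIs. No population of the sort is known to lack these genes, so a background share from free RNA could not be set.

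Pairs of the genes were compared within 4 groups of thinned cells. In NTT Infl_Mono, cells with one gene of a pair had the other more often than cells without it in 36 of 36 pairs, with medians of 45.0% and 27.9% of cells over both orders of a pair. In RTT Infl_Mono this held for 26 of the 28 pairs without Gbp2b, which had no UMI there (43.1% and 21.9%). It held for 34 of 36 pairs in NTT Monocyte_1 (29.9% and 18.5%). The share of pairs was lowest in RTT TAM_C1q, with 22 of 28 and medians of 5.76% and 3.36%. Many of these pairs rest on few cells, since Gbp4, Gbp5 and Iigp1 were found in 12, 19 and 18 thinned cells there. Pairs of other genes were not counted. Whether other genes of like level are found together as often in the same cells was therefore not tested.

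**Figure D5:**
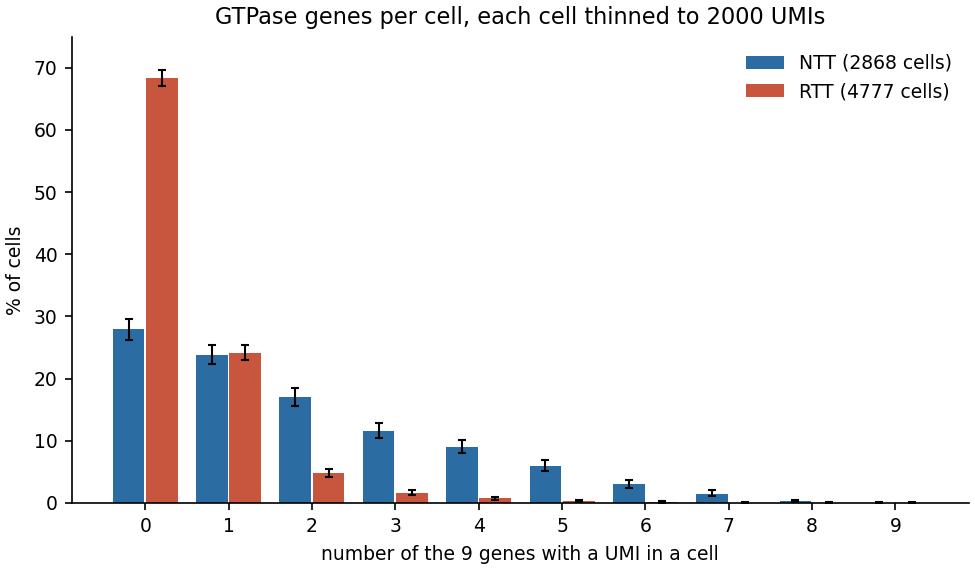
Share of cells by the number of the 9 genes with a UMI, each cell thinned to 2000 UMIs, with exact 95% binomial intervals (2868 NTT and 4777 RTT cells). Cells with none make up 27.9% of the NTT and 68.4% of the RTT cells, and the NTT bars are higher from 2 genes up to 8.

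Other genes of the same pathways were read from fixed lists. Of 22 further GBP and IRG family genes, 9 were in the matrix and 8 of the 9 were lower by at least 2-fold over all cells, where 9.6% of all genes were, which is also the background of the list counts that follow. Ifi47, an IRG, went from 332 to 57.9 CPM (-2.52), Irgm2 from 47.2 to 8.66 CPM (-2.45) and Gbp6 from 44.6 to 2.71 CPM (-4.04). Irgq, an IRG-like gene, had 5.25 and 6.37 CPM (0.28, interval -0.05 to 0.62).

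Of the 13 genes of the interferon-gamma pathway, 10 were lower by at least 2-fold. The ligand Ifng went from 39.2 to 2.93 CPM. Of its UMIs, 98.4% of 770 in NTT and all 131 in RTT lay in the population labelled NK_cells, in which it had 571 and 355 CPM. T cell markers were found in that population too, so these Ifng UMIs cannot be given to NK cells alone. The receptor genes did not follow, with 339 and 335 CPM for Ifngr1 (-0.01) and 134 and 194 CPM for Ifngr2 (0.53). The kinase Jak2 (157 to 39.1 CPM, -2.00) and the transcription factor Irf1 (191 to 38.9 CPM, -2.30) were lower. Of the 18 type I interferon genes in the matrix 14 were lower, and those that were not were the receptor genes Ifnar1 and Ifnar2 and the kinases Jak1 and Tyk2. The 2 lists share genes, Jak1 among them.

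Of the 16 genes whose products work with GBPs in inflammasomes and autophagy, 4 were lower by at least 2-fold, and the median ratio was -0.32. They were Rnf213 (278 to 46.3 CPM, -2.59), a ubiquitin ligase that targets intracellular pathogens, Ube2l6 (85.4 to 22.1 CPM, -1.95), the ISG15-conjugating enzyme, Casp4 (140 to 38.0 CPM, -1.89), the caspase that senses lipopolysaccharide, and Il1b (2545 to 1066 CPM, -1.26). Among the autophagy genes whose products help to load GBPs and IRGs onto vacuoles, Atg5 had 54.4 and 87.7 CPM (0.69), Atg3 had 162 and 159 CPM (-0.02) and Atg16l1 had 18.5 and 15.4 CPM (-0.26). Gsdmd, the pore-forming target of inflammatory caspases, had 109 and 83.1 CPM (-0.39).

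In monocytes 5 of 9 further GTPases were lower by at least 2-fold, with a median of -1.03, and 2 of 18 type I genes were, with a median of -0.17, against 6.74% of all genes. Within Infl_Mono the medians were -1.14 and -0.36, with 6 of 9 and 2 of 18 genes lower (background 9.78%). Within Monocyte_1 they were -0.98 and -0.59, with 4 of 9 and 5 of 18 genes lower (background 9.87%). In Infl_Mono, Ifit1 and Ifit3, interferon-induced RNA-binding proteins, had 1100 and 1404 CPM (0.35) and 901 and 1375 CPM (0.61), where Gbp2 had 1214 and 333 CPM (-1.87). These 3 are single genes, and Gbp2 lay far below the median of the 9 members there, -0.66. Of the 18 type I genes, 0 were higher by 2-fold in Infl_Mono. In macrophages the type I median was the lower one, at -2.34 against -1.95 for the further GTPases. The same held in dendritic cells (-2.11 against -2.00) and NK_cells (-1.66 against -0.98), but not in DC3 alone (-0.93 against -1.69). The interferon-gamma list had medians of -0.74 in monocytes and -0.61 in Infl_Mono. The differences between these ratios and medians were not tested.

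The genes most like the 9 were found by the correlation of log2(CPM + 1) with the mean of the 9 over the 21 groups, among genes with at least 500 UMIs. They were Ifi206 (Pearson r 0.95), Ifi47 (0.94), Ifi208 (0.91), Xaf1 (0.91), Oas3 (0.90), Irgm2 (0.90), Rnf213 (0.89), Parp14 (0.89), Rtp4 (0.89) and Zbp1 (0.87). The groups share 2 libraries, so these values are a description. All 10 were lower in RTT over all cells, Ifi208 from 83.9 to 5.17 CPM (-4.02) and Parp14 from 295 to 77.9 CPM (-1.92) at the ends. Of all genes with at least 500 UMIs, 9.6% were lower by at least 2-fold. The 10 were picked for following the 9 over groups of both libraries, so a lower RTT level was largely built into the choice. Between pairs of the 9 genes r had a median of 0.73 over 36 pairs, from 0.41 for Gbp2b with Gbp5 to 0.91 for Igtp with Iigp1.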

How the data were processed

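The deposited data were 1 matrix of UMI counts per cell, with tables of genes, barcodes and cells. Per the labels and the study's methods, the authors made these counts with Cell Ranger 6.1.1 on mm10 and named the 16 populations, which were used as given. Counts were summed over the cells of a library, or of a population in it, and divided by the summed UMIs (CPM). A log2 ratio has an exact binomial interval. A count of 0 was replaced by a floor of 3 UMIs and gives a bound, and no ratio is given when both libraries are at or under the floor. A gene was called lower at a log2 ratio of -1 or below. Background shares used genes with at least 500 UMIs over all cells or 200 in a class.

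Named genes were the 9 members, the genes of 4 fixed lists and the 10 genes most like the members. The members and lists were chosen with earlier results of these data known. No test was run, as each group had 1 library. edgeR 4.0.16 (TMM) and DESeq2 1.42.0 (size factors) in R 4.3.3 gave other scalings, and numpy 2.4.6, scipy 1.17.1 and pandas 2.3.3 in Python 3.11.15 the rest. Each cell was also thinned at random to 2000 UMIs. Alternatives changed the scaling, the cells kept, the weights of populations and the minimum of UMIs. No doublet caller was run, and one alternative left out the 5% of cells with most UMIs. Ratios, intervals, thinning and the split into shares and levels were tested on simulated data. Promoter windows and gene positions come from RefSeq on GRCm38.p6, the build of mm10. Columns of other samples left unused numbered 0. The value of 1 listed gene is not reported here.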

Additional observations from a re-analysis of the deposited data

Results flagged for a closer look

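Values in small populations that went against the difference over all cells drew a second look, and none of these contrasts between populations was tested. Gbp2 in TAM_H2Ab1 had a log2 ratio of 1.28, where it was -3.24 over all cells. It was found in 29.6% of 169 thinned NTT cells (22.8 to 37.1) and in 47.1% of 34 thinned RTT cells (29.8 to 64.9). Without the cell that held the most Gbp2 UMIs in each library, the ratio was 1.25 (0.99 to 1.50). Gbp3 in TAM_H2Ab1 had a ratio of 0.50, and without the top cell of each library it was 0.38, with an interval of -0.08 to 0.81 that included 0.

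Iigp1 in the population labelled Macro had a ratio of 4.14, from 6 UMIs in 100 NTT cells and 26 UMIs in 26 RTT cells. All 26 RTT UMIs lay in 1 cell, and the other RTT cells had 0.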

How the results depend on the processing

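No paired analysis was possible because each group had 1 library. Over all cells, weighting the 8 populations with at least 50 cells in both libraries equally moved the median log2 ratio of the 9 genes from -2.80 to -1.31, and 6 of 9 genes stayed lower by at least 2-fold. Mean per-cell CPM gave -2.96, thinning to 2000 UMIs -3.15 and leaving out the 5% deepest cells -2.97, each with 9 of 9. Equal weights gave -1.80 in macrophages, where only TAM_Spp1 and TAM_cycling had at least 50 cells in both libraries. TAM_C1q, TAM_H2Ab1, Macro and Ctsk_Macro did not enter that value. In monocytes, leaving out cells with C1qa at 1000 CPM or more, an alternative chosen after the data were seen, moved the median from -0.54 to -1.21 and the count from 4 to 7, with Gbp2b then at a bound of -0.42. The part of the difference from population shares was 58.2%, 73.5% with NTT weights and 42.8% with RTT weights. The other medians stayed within the counting interval and the other counts within 1.5 times, also with TMM scaling, with DESeq2 size factors, with cells of at least 1500 genes, without the top cell of each gene and, chosen later, without the Myofibrobl cells. Of 298 values of single genes under these alternatives, 298 kept their sign and 19 crossed the 2-fold line. The TMM and DESeq2 shifts were below 0, as were the ratios they were added to, so these scalings could not change a sign. Of all genes, 9.6% were lower by at least 2-fold at 500 UMIs, 11.6% at 100 and 16.2% at 1 UMI. Of the 10 genes most like the members, 6 were shared when groups of at least 20 cells entered and 9 when ranks were used. Depth limited Gbp2b most, of whose 28 RTT UMIs 5 lay in 1 cell.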

Other observations

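Cells outside the named immune populations carried GTPase mRNA too. In the 14 NTT cells labelled Myofibrobl, which the CD45 sort should have left out, Iigp1 had 135 UMIs (1081 CPM) and Gbp7 105 UMIs (840 CPM), and in the 24 RTT cells they had 37 UMIs (105 CPM) and 4 UMIs (11.4 CPM). Single cells weighed heavily, since 35 of the 37 RTT Iigp1 UMIs and 48 of the 105 NTT Gbp7 UMIs lay in 1 cell each. The 4 fibroblast markers (Col1a2, Col3a1, Sparc and Serpinh1) summed to 4755 CPM in NTT and 5030 CPM in RTT Myofibrobl cells, with 3 of 4 found in each. The Spp1-macrophage markers (Spp1, Arg1 and Thbs1) summed to 29801 and 51731 CPM there and the macrophage markers to 4555 and 2789 CPM, and Ptprc, which encodes CD45, had 192 and 57.0 CPM. No member UMI was counted in the 3 NTT and 2 RTT cells labelled Mast.

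Ctsk_Macro, a population of 280 RTT cells, held the 9 genes at 154 CPM (interval 143 to 167). Gbp7 gave 331 of its 628 member UMIs, and Gbp2b was not found, with 0 of 280 cells.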
